A study of Mus musculus with 7 samples.

Results

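The miRNAs described here are the 2 arms of the miR-574 hairpin, mmu-miR-574-3p and mmu-miR-574-5p, together with mmu-miR-1187. They are 3 of the 263 rows of the normalized table, which holds 11 control rows beside the mouse miRNAs. They were chosen by name, with their changes in these comparisons already known, so the values of the 3 members are a description and carry no test. MiRNA levels were measured in cells cultured from soft tissue sarcomas of p53 knockout mice. All groups therefore lacked p53 and were transduced and selected with puromycin. The 2 arrays of control primary cells held cells with a non-target shRNA, and 2 further arrays, of Rb-depleted primary cells, held cells with an shRNA against Rb, both grown as monolayers. The 3 arrays of Rb-depleted secondary cells held cells with the Rb shRNA that were recovered from spheres grown without serum and returned once to monolayer culture. Control secondary cells were not analysed here, so the shRNA and the passage through spheres cannot be told apart where secondary cells are compared with control cells. The spheres were picked by hand and pooled, the Rb shRNA was a single construct, and the age of the mice is not given in the sources used here. The array holds no probe for an mRNA, so the depletion of Rb was not measured on it. The submitters describe the replicates as independent experiments, without saying whether the cultures were separate.

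A miRNA hairpin is cut into a duplex whose strands are named for the arm they come from, 5p and 3p. Either strand can be loaded into an Argonaute protein, where bases 2 to 8, the seed, pair with target transcripts. Both arms of one hairpin come from the same precursor, but they can be kept at very different levels. The sequences below are shown because the members of the set differ most in their content of G and U. They are RefSeq mature sequences (GRCm38), 5′ to 3′, with the seed in capitals.
miR-574-3p: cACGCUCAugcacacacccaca
miR-574-5p: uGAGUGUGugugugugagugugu
miR-1187: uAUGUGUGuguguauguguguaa
No seed was shared among these sequences, nor with any other mouse mature sequence in the RefSeq table. G and U made up 91.3% of the 23 bases of miR-574-5p, 82.6% of the 23 bases of miR-1187 and 18.2% of the 22 bases of miR-574-3p. The same sequences of the GU-rich members are repeated here with the longest alternating run of G and U in capitals.
miR-574-5p: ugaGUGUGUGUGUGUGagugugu
miR-1187: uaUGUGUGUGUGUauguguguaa
The run of 13 bases in miR-574-5p was the longest among 1674 mouse mature entries of RefSeq, and the run of 11 bases in miR-1187 came next. Only 13 of the 1674 entries (0.777%) held a run of 7 or more. For 12 miRNAs of the table, from the miR-466, miR-467 and miR-669 families, no sequence was found under their names. The ranking and the share thus hold for these RefSeq entries only.

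The hairpins show how the GU-rich stretches sit in each precursor, with the mature sequences in capitals.
Mir574: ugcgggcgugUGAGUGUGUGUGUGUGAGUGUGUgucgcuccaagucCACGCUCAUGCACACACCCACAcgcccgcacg
Mir1187: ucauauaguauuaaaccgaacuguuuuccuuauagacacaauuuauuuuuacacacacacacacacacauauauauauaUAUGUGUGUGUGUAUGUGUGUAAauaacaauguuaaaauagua
Mir574 (ENSMUSG00000077042.2) lies at chr5:65361557-65361634 on the plus strand of NCBIM37. This is inside intron 1 of the 14-exon transcript of Fam114a1, 173 bases past the first exon and on the same strand as the host gene. Mir1187 (ENSMUSG00000080586.1) lies on the same chromosome, at chr5:83227969-83228090 on the minus strand, and overlaps no annotated protein-coding gene. The nearest protein-coding genes are Lphn3, 973810 bases to its left, and Tecrl, 479079 bases to its right. The Mir1187 hairpin of 122 bases is a simple repeat for much of its length, with an alternating CA run of 19 bases and a UA run of 14 bases before the GU run. Over the 21 chromosomes searched on both strands, the mature miR-574-3p sequence had 1 exact copy, its own locus. MiR-1187 had 7 exact copies and miR-574-5p had 858. Whether transcripts of the other copies contribute to the array signals was not tested.

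Each array gives a total gene signal per miRNA, the summed brightness of the probes that the scanner software counts, in intensity units. The authors deposited the log2 of this signal after quantile normalization, which gives every array the same distribution over 718 features. Undetected features carry a floor of 0.1, or -3.32 on the log2 scale, and 269 to 298 features were detected per array. One slide carried all 4 primary arrays and replicate 1 of the secondary cells, and another carried secondary replicates 2 and 3. Of the 11 measured miRNA features on the list of mesenchymal markers, 10 were detected on all arrays, with summed signals of 67618 to 87186. Most of this sum was the 5p arm of miR-21, with 55322 to 69912. None of the 12 epithelial and 5 blood features was detected on any array. Of the endothelial markers, miR-126-3p was detected on all 4 arrays of primary cells, where the summed signal of the list was 7.12 to 10.8, and on none of secondary cells. Among the muscle markers, miR-206 was detected on every array at 12.9 to 47.0, and miR-1 and miR-133 on none. The summed signal of the muscle list was 46.7 to 47.4 in control cells, 28.2 to 44.2 in Rb-depleted primary cells and 13.3 to 36.8 in secondary cells. The part of either marker list in the values below was not tested. These are bulk samples, in which fewer cells of a type and less RNA per cell cannot be told apart.

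MiR-574-3p, the GU-poor arm, was close to the detection limit. Its total gene signal was 6.40 and 4.85 for control cells, 4.45 and 4.60 on the Rb-depleted primary arrays, and 7.07, 4.01 and 10.9 on the secondary arrays. The scanner's own error on these signals was 1.15 to 1.81. One array of secondary cells thus lay below all others and the other two above all others, and the groups of secondary and control cells overlapped. After normalization the deposited log2 values were 0.85 and -0.18 for control cells, -0.18 and 0.65 after Rb depletion in primary cells, and 3.38, 1.80 and 3.51 for secondary cells. On that scale all secondary arrays lay above all primary arrays. The same held for 29.8% of the table's mouse miRNAs against control cells and for 27% against Rb-depleted primary cells.

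The log2 change of miR-574-3p in secondary relative to control cells was 2.56 in the deposited values, a fold change of 5.91 and the second highest of the table, behind 1 miRNA. Before normalization it was 0.28, a fold change of 1.21, against a median of -0.46 over all miRNAs of the table, and 15 miRNAs had a higher change. Relative to that median the unnormalized change was 0.74. The change from Rb-depleted primary to secondary cells was 2.66 in the deposited values and 0.58 before normalization. The deposited change between Rb-depleted primary and control cells was -0.10, within the spread of the replicates (SD 0.73 in control cells and 0.58 in Rb-depleted primary cells, n = 2 each). Without normalization it was -0.30, close to the median of -0.26, with both Rb-depleted primary arrays below both control arrays, as for 57.9% of the table. Sums over all probes and means of spots gave -0.47 and -0.53. The SD in secondary cells was 0.95 (n = 3).

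**Figure D1:**
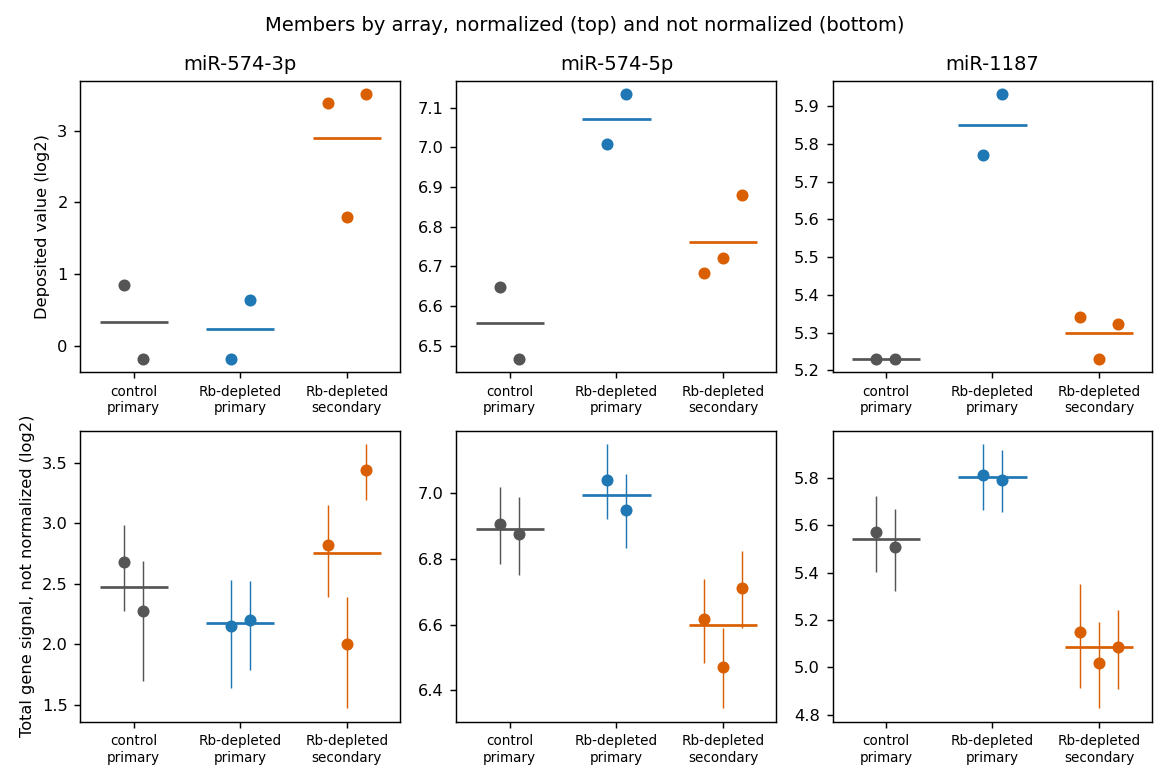
Values of miR-574-3p, miR-574-5p and miR-1187 on each array as deposited (top row, log2) and as log2 total gene signal without normalization (bottom row, with the scanner's error as bars). Points are arrays and horizontal lines are group means over 2, 2 and 3 arrays; the vertical axes differ between panels and do not start at 0. In secondary cells miR-574-3p is at 1.80 to 3.51 in the top row and overlaps control cells in the bottom row, and miR-574-5p lies above control cells in the top row and below them in the bottom row.

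Most of the difference between these scales arose at a step in the normalization. Quantile normalization replaces each value with the mean, over the 7 arrays, of the values at that rank. MiR-574-3p stood at ranks 288 and 295 on the control arrays, 295 and 292 on the Rb-depleted primary arrays, and 264, 283 and 261 on the secondary arrays. Replicate 1 of the secondary cells had 269 detected features, the fewest of any array, and its rank of 264 was therefore close to the end of its own detected features. From rank 270 on, at least 1 array contributed the floor to the mean, and the mean fell from 3.16 at rank 269 to 2.30 at rank 270. At the ranks of miR-574-3p, 2 or 3 arrays were at the floor for each array of primary cells, and 0, 1 and 0 for the secondary arrays. The deposited minus the unnormalized log2 value was accordingly -1.83 and -2.46 for control cells and -2.34 and -1.55 for Rb-depleted primary cells. On the secondary arrays it was 0.56, -0.20 and 0.06. The median miRNA of the table was moved by -0.32 to 0.21 on the same arrays.

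**Figure D2:**
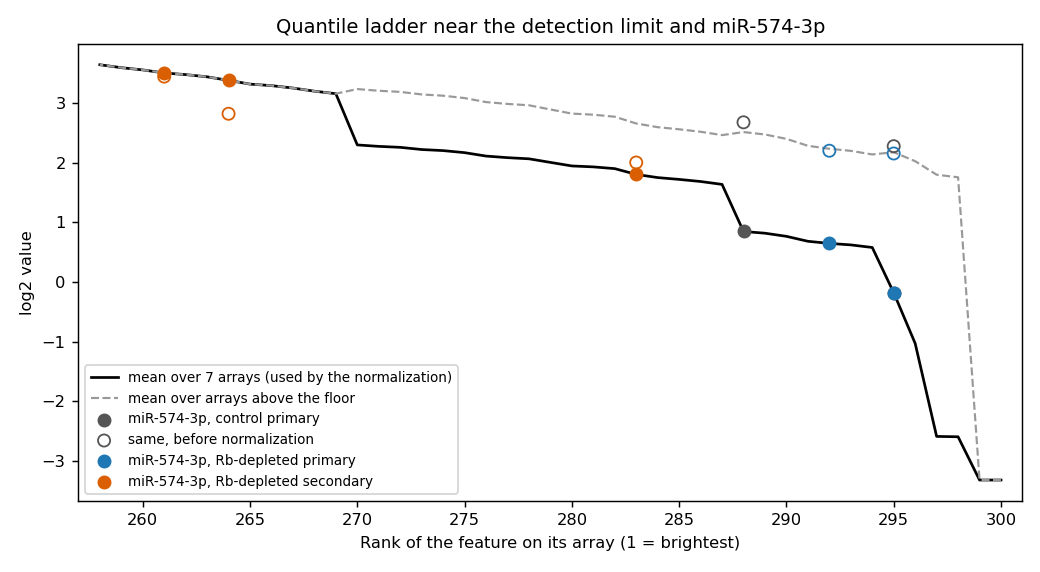
Mean log2 value at each rank of the quantile normalization from rank 258 to rank 300, over all 7 arrays (solid line) and over the arrays above the floor only (dashed line). Filled points are miR-574-3p as deposited and open points its log2 total gene signal, with control replicate 2 and Rb-depleted primary replicate 1 lying on each other at rank 295. The filled points of primary cells sit past the steps of the solid line, between -0.18 and 0.85, while the open points of all arrays lie between 2.00 and 3.44.

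When each rank was averaged only over the arrays above the floor, a setting chosen after the data were seen, the change of miR-574-3p in secondary relative to control cells was 0.84. It was 0.52 with quantile normalization of the table's miRNAs alone, 0.73 with scaling to their 75th percentile and 0.41 with scaling to the 11 control rows of the table. All of these were positive and below 2.56. Of the miRNAs in the table, 18 lay beyond rank 269 on at least 1 array, a set also chosen after the data were seen. In the 17 of them other than miR-574-3p, the median size of the log2 change between secondary and control cells was 0.90 as deposited and 0.66 without the floor. It was 0.26 on both scales in the other 234.

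Signals of single probes were examined next, because the total gene signal counts a probe only when it stands clear of its error. MiR-574-3p has 4 probes with 5 spots each, named A to D here by falling brightness. Probe A was counted on all 7 arrays, and probe B on replicate 3 of the secondary cells alone. Probes that were counted had a signal of at least 3.01 times their error, and those that were not had at most 2.80 times. The total of 10.9 on replicate 3 was thus the sum of 7.44 from probe A and 3.45 from probe B. Probe B gave 4.49 on replicate 1 of the secondary cells, a higher signal, and was left out there, where its error was 1.72 against 1.14 on replicate 3. Such a change in the counted probes was not particular to miR-574-3p: it occurred in 42 of the 244 miRNAs of the table whose probes could be resolved (17.2%).

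Probe A alone gave 6.40 and 4.85 on the control arrays, 4.45 and 4.60 on the Rb-depleted primary arrays, and 7.07, 4.01 and 7.44 on the secondary arrays. Its log2 change in secondary relative to control cells was 0.10 without normalization. The fainter probes were close to their error: no spot of probes B, C and D was well above background on any array, and the signals of C and D were 0.84 to 2.40 times their error. Changes of these probes are therefore not given one by one. Summing all 4 probes on every array gave -0.24, and the mean log2 signal of single spots above 0 gave -0.48. On control replicate 2 and secondary replicate 1, 19 of the 20 spots were above 0. No median over the table was taken for spot signals. The sign of the value for miR-574-3p between secondary and control cells thus differed between readings of the probes, all of which include or rest on signals near their error, and no direction is drawn from it. Of the 20 spots for miR-574-3p on each array, 2, 0, 0, 2, 2, 0 and 5 were well above background, in the order control, Rb-depleted primary and secondary arrays. The spots of a probe varied with a median coefficient of variation of 38.0%.

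**Figure D3:**
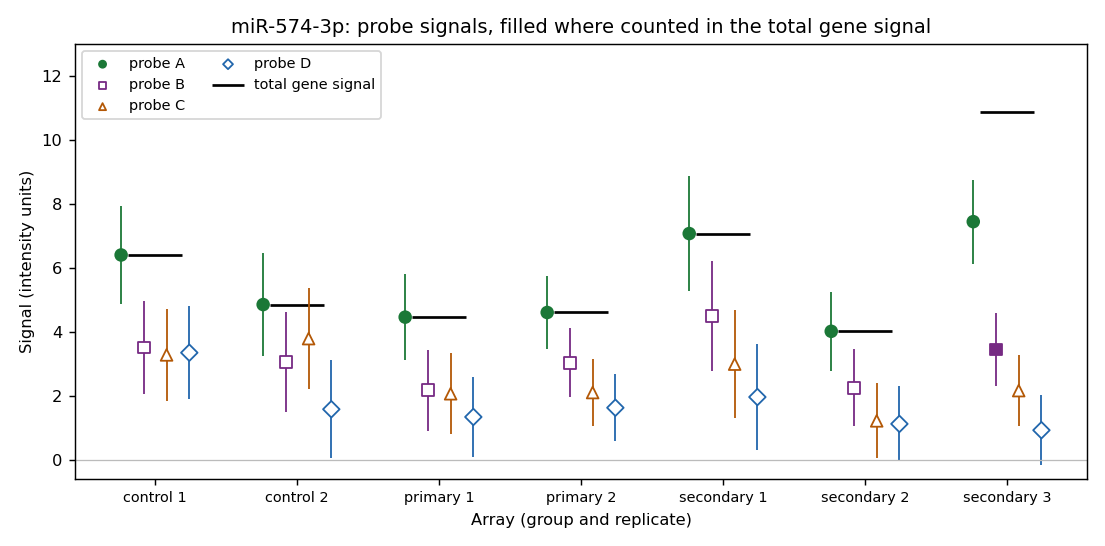
Total probe signal of the 4 probes for miR-574-3p on each array, in intensity units, with the scanner's error as bars. Filled symbols were counted in the total gene signal, which is drawn as a black line. Probe A is filled on all 7 arrays, and only on secondary replicate 3 is probe B filled too, which brings the total to 10.9.

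MiR-574-5p, the GU-rich arm of the same hairpin, was measured well above background. Its total gene signal was 119.9 and 117.4 for control cells, 131.7 and 123.6 on the Rb-depleted primary arrays, and 98.1, 88.8 and 104.8 on the secondary arrays. The 3 groups did not overlap before normalization, with Rb-depleted primary cells highest and secondary cells lowest. The scanner's error on these signals was 7.49 to 10.4, more than the gap between the control and Rb-depleted primary arrays. With scaling to control rows the log2 change between these 2 groups was 0.023 and their arrays overlapped. Arrays without overlap were common: 6.35% of the table lay wholly above control cells in Rb-depleted primary cells, 68.7% wholly below control cells in secondary cells, and 36.5% wholly below Rb-depleted primary cells in secondary cells. Deposited log2 values were 6.65 and 6.47 on the control arrays, 7.01 and 7.13 on the Rb-depleted primary arrays, and 6.68, 6.72 and 6.88 on the secondary arrays. On this scale control cells were lowest and secondary cells lay between the other groups.

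The log2 change of miR-574-5p in Rb-depleted primary relative to control cells was 0.51 as deposited and 0.10 without normalization, where the median of all miRNAs was -0.26. As deposited, 31% of the table lay above control cells in the same way. Between secondary and control cells the change was 0.20 as deposited and -0.29 without normalization. Its place in the table was similar, since 85 changed more in the upward direction as deposited and 91 did without normalization, and it was 0.17 above the median on both scales. From Rb-depleted primary to secondary cells it was lower on both scales, with changes of -0.31 and -0.40, and on neither did the arrays overlap, as was the case for 24.2% of the table in the deposited values. The SD of the deposited values was 0.13 in control cells (n = 2), 0.089 in Rb-depleted primary cells (n = 2) and 0.10 in secondary cells (n = 3).

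MiR-1187 followed the same course. Its total gene signal was 47.6 and 45.5 for control cells, 56.2 and 55.4 on the Rb-depleted primary arrays, and 35.5, 32.4 and 33.9 on the secondary arrays. These groups were further apart than those of miR-574-5p and did not overlap. Without normalization, 6.35% of the table lay wholly above control cells in Rb-depleted primary cells. In secondary cells 68.7% lay wholly below control cells and 36.5% wholly below Rb-depleted primary cells. The deposited log2 values were 5.23 on both control arrays, 5.77 and 5.93 on the Rb-depleted primary arrays, and 5.34, 5.23 and 5.32 on the secondary arrays. The value 5.23 appeared 3 times because miR-1187 stood at rank 209 on each of those arrays, where the normalization gives 1 number, although the signals were 47.6, 45.5 and 32.4. An SD of 0 in control cells is thus a product of the normalization, and without it the SD of the log2 signal there was 0.046 (n = 2).

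In Rb-depleted primary relative to control cells, the log2 change of miR-1187 was 0.62 as deposited, with 12 miRNAs above it, and 0.26 without normalization, with 10 above it. In secondary relative to control cells it was 0.068 as deposited and -0.46 without normalization. The latter was 0.0055 above the median of all miRNAs, so miR-1187 moved there with the typical miRNA of the table. From Rb-depleted primary to secondary cells the change was -0.55 as deposited and -0.72 without normalization, where 220 and 218 miRNAs had a higher change.

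**Figure D4:**
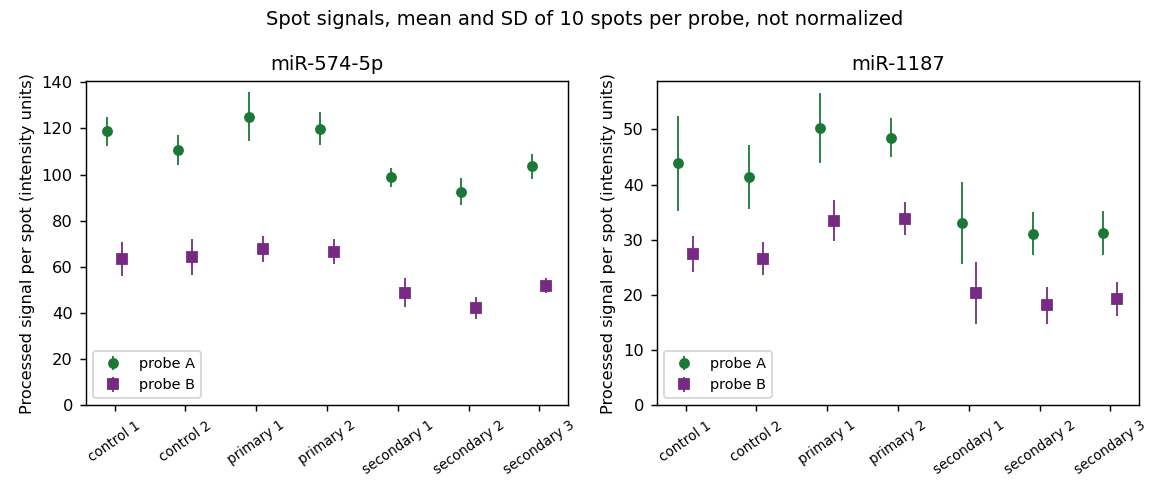
Processed signal per spot of the 2 probes for miR-574-5p (left) and miR-1187 (right) on each array, in intensity units without normalization; points are means and bars the SD of 10 spots. For each miRNA both probes are highest in Rb-depleted primary cells and lowest in secondary cells.

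Both probes of each GU-rich miRNA were counted on every array, and they moved together. All 20 spots of miR-574-5p were well above background on every array. Of the 20 spots of miR-1187, 19, 19, 20, 20, 9, 15 and 17 were, in the order control, Rb-depleted primary and secondary arrays. On secondary replicate 1, probe B of miR-1187 had 0 such spots of 10 and a signal of 3.76 times its error. In miR-574-5p the unnormalized log2 change between Rb-depleted primary and control cells was 0.11 for probe A and 0.090 for probe B, and that between secondary and control cells was -0.23 and -0.41. In miR-1187 the corresponding changes were 0.22 and 0.33, and -0.43 and -0.49. For each of these probes, both primary arrays with the Rb shRNA lay above the control arrays and all secondary arrays below them. Among the unnormalized total gene signals of the table, 6.35% and 68.7% did so. The spots were less scattered than those of miR-574-3p, with median coefficients of variation of 7.29% and 12.7%. No spot of any member was saturated. In the plot of changes by scaling, methods with 1 factor per array shift all miRNAs alike and cannot move a miRNA relative to the median.

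**Figure D5:**
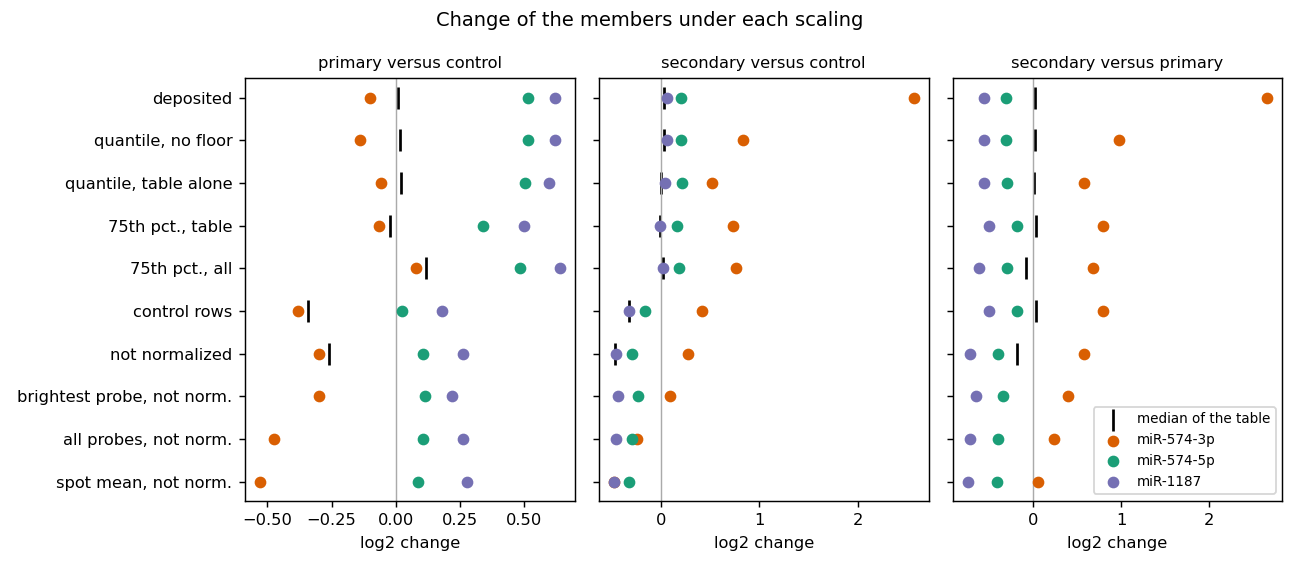
Log2 change of the 3 miRNAs in each comparison under 10 ways of scaling or reading the arrays, with the median of the table's miRNAs as a black tick where the whole table was scaled; the horizontal axes differ between panels. MiR-574-3p stands at 2.56 and 2.66 only in the deposited values, while miR-574-5p stands at 0.51 and miR-1187 at 0.62 in the deposited values of the left panel.

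Both arms of Mir574 come from 1 transcript, and their difference within an array does not depend on a scaling factor common to the array, although quantile normalization can still alter it. Levels of different miRNAs on an array depend on their probes, so only the change of this difference between arrays is described. The log2 signal of miR-574-3p minus that of miR-574-5p was -4.23 and -4.60 for control cells, -4.89 and -4.75 on the Rb-depleted primary arrays, and -3.80, -4.47 and -3.27 on the secondary arrays before normalization. The difference between secondary and control cells was 0.57, with overlapping arrays. As deposited the means were -6.22 (SD 0.60, n = 2) in control cells, -6.84 (SD 0.50, n = 2) in Rb-depleted primary cells and -3.86 (SD 0.91, n = 3) in secondary cells. At the level of single spots they were -3.04, -3.65 and -3.19, and the change from control to secondary cells was -0.15.

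The slide was not the same for all secondary arrays. Within the first slide, which held 1 secondary array, the deposited change of miR-574-3p relative to control cells was 3.05 and the unnormalized one 0.34. On the same slide miR-574-5p had 0.13 as deposited and -0.27 without normalization, and miR-1187 had 0.11 and -0.39. Each had the sign of the value over all arrays, but with 1 array it has no replicate. All primary arrays lay on that slide, and the change from control to Rb-depleted primary cells was therefore measured within it.

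A list of other miRNAs, called the GU-rich list here, was made from sequence where RefSeq gave one and from family names otherwise. Table miRNAs of other families without a sequence were not checked for a GU run and were left off the list. It held 14 miRNAs of the table other than the members: miR-206 and miR-669n by a run of at least 7 alternating G and U bases, and 12 by belonging to the miR-466, miR-467 and miR-669 families, most of whose hairpins lie in an intron of Sfmbt2. No sequence was found under the names of these 12, so a GU run was not checked in them. Some of them are 3p arms, such as miR-466f-3p and miR-669f. Values of the list are therefore not those of miRNAs known to hold GU repeats. Members of these families resemble each other in sequence, and how far their probes share targets was not tested. In the limma fit to the whole table, with p adjusted by Benjamini-Hochberg, 0 of the 14 passed an adjusted p of 0.05 in any of the 3 comparisons, and 3, 0 and 2 had an unadjusted p under 0.05, as had 25.4%, 36.5% and 40.5% of the table. Leaving out 1 array changed this in some cases. Without control replicate 1, which left 1 control array, miR-466f-3p changed by 1.60 in Rb-depleted primary and 1.61 in secondary cells relative to control cells. In secondary cells its change was -0.35 without control replicate 2 and, on all arrays, -0.39 without normalization. Without secondary replicate 2, miR-206 was called lower in secondary cells relative to control cells (-1.22, limma adjusted p = 0.0167) and to Rb-depleted primary cells (-1.11, limma adjusted p = 0.0232). Among all mouse miRNAs of the table, 0.397% were called higher and 1.19% lower in Rb-depleted primary relative to control cells, 13.1% and 9.52% in secondary relative to control cells, and 12.7% and 7.54% in secondary relative to Rb-depleted primary cells. These shares come from 4, 57 and 51 calls. The counts moved with the arrays used: leaving out each array in turn gave 0 to 22, 1 to 74 and 2 to 66 calls.

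In Rb-depleted primary relative to control cells, 12 of the 14 had a deposited change above 0, as had 50.4% of the table. Their median change was 0.33 and that of all miRNAs 0.0082. None of these changes passed the test on all arrays. The highest values were 0.86 for miR-467c, 0.67 for miR-669n and 0.61 for miR-466f-3p, and the negative ones were -0.11 for miR-206, the muscle miRNA of the list, and -0.22 for miR-669f. Values of 0.23 to 0.48 were found for miR-466a-3p, miR-466c-5p, miR-467a, miR-467a-1*, miR-467b, miR-467e, miR-669a, miR-669b and miR-669l. The changes of miR-574-5p and miR-1187, 0.51 and 0.62, lay between -0.22 and 0.86, the lowest and highest of the list. The value of miR-466f-3p rested on the control arrays: it was 1.60 without control replicate 1 and -0.37 without control replicate 2, and -0.084 without normalization.

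In secondary relative to Rb-depleted primary cells, 2 of the 14 had a change above 0, against 53.6% of the table, and the median was -0.27 against 0.021. The lowest were miR-669n at -0.83, miR-467c at -0.77 and miR-206 at -0.67, none of which passed the test on all arrays. The list median there was -0.11 without secondary replicate 2 and -0.17 without Rb-depleted primary replicate 2. Against control cells the secondary cells had a median of 0.097 over the list and 0.032 over the table, with 10 of the 14 above 0. This did not hold without control replicate 1 (median -0.025, 6 above 0) or without secondary replicate 1 (-0.00056, 7 above 0), and the median was 0.20 without secondary replicate 2. Without normalization 0 of the 14 were above 0 there, as were 12.7% of the table. On that scale the list medians were -0.071 in Rb-depleted primary and -0.47 in secondary cells relative to control cells, beside -0.26 and -0.46 over the table. On that scale 3 of the 14 were called lower in secondary than in control cells (miR-206, miR-467a and miR-669f), where 43.3% of the table was. MiR-467c was the 1 called lower in secondary cells when set against Rb-depleted primary cells, beside 13.9% of the table. The comparisons with control cells share the control arrays, and those with Rb-depleted primary cells share the arrays of these cells.

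For each member, the 3 miRNAs with the most similar deposited values were listed by Pearson's r over the 7 arrays, which share the 2 slides and the normalization. For miR-574-3p these were miR-101a (0.95), miR-214* (0.95) and miR-15a (0.95), all with their highest group mean in secondary cells. Without normalization these correlations were 0.70, 0.45 and 0.65. For miR-574-5p they were miR-423-5p (0.90), miR-374 (0.89) and miR-1187 (0.88), and for miR-1187 they were miR-652 (0.99), miR-532-5p (0.94) and miR-2146 (0.92), all with their highest mean in Rb-depleted primary cells. The r between miR-574-5p and miR-1187 was 0.94 without normalization. Between the arms of Mir574 it was -0.029 as deposited and -0.17 without normalization.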

How the data were processed

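MiRNA expression was measured on 1-colour Agilent mouse miRNA arrays, 7 in all. Per the labels, images were read with Agilent Feature Extraction 10.7.3.1, while the file headers give 11.0.1.1. The deposited table holds log2 values that the authors quantile normalized in GeneSpring, and the files of each array hold the scanner's intensity values for spots, probes and miRNAs. Quantile normalization of the log2 total gene signal over 718 features gave the deposited values to within 3.24e-06. Table names were matched to scanner names by these values (tolerance 0.0001), and all but 1 of the matched names shared the miRNA number. Precision is limited by the number of arrays.

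The 3 miRNAs and the GU-rich and marker lists were chosen with earlier results of these data known. The miRNAs named are these 3, the list members, and the 3 most correlated with each member; any other was chosen after its values were seen. Changes are differences of group means. For background, a model with 3 group means was fitted to the mouse miRNAs of the table on all arrays with limma 3.58.1 in R 4.3.3 (adjusted p of 0.05), and was tested on simulated data. Other steps used Python 3.11.15, numpy 2.4.6 and pandas 2.3.3. Loci came from GENCODE on NCBIM37, the build of the array, and sequences from RefSeq on GRCm38. Alternatives covered other scalings, probe and spot signals, the replicate number, the slide and each array left out.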

Additional observations from a re-analysis of the deposited data

Results flagged for a closer look

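In the unnormalized signals, miR-574-5p and miR-1187 changed in opposite directions relative to the control mean. Both Rb-depleted primary arrays were above it and all 3 Rb-depleted secondary arrays below it. Of the table, 6.35% lay wholly above control cells in Rb-depleted primary cells and 68.7% wholly below them in secondary cells. The median change in secondary cells was -0.46, and miR-574-5p was 0.17 and miR-1187 0.0055 above that median. In Rb-depleted primary cells the median was -0.26, and they were 0.36 and 0.52 above it, so neither changed direction relative to the median. With scaling to control rows, miR-574-5p changed by 0.023 in Rb-depleted primary relative to control cells, with overlapping arrays. The log2 change of secondary minus that of primary cells was -0.40 for miR-574-5p and -0.72 for miR-1187. The difference was not tested, since the miRNAs were chosen with these changes known. In the deposited values the secondary arrays of neither miRNA had a mean below control cells.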

How the results depend on the processing

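Values are given in the order secondary relative to control and secondary relative to Rb-depleted primary cells for miR-574-3p, whose deposited changes were 2.56 and 2.66. They were 0.28 and 0.58 without normalization and with a floor of 1 over all mouse miRNAs, 0.73 and 0.80 with the 75th percentile of the table, 0.76 and 0.68 with that of all mouse miRNAs, and 0.52 and 0.57 with quantile normalization of the table alone. Spots gave -0.48 and 0.052 as mean log2 and -0.27 and 0.17 as a sum of probe means. Of the settings chosen after the data were seen, all probes gave -0.24 and 0.24, the brightest probe 0.096 and 0.40, control rows 0.41 and 0.80, and quantiles without the floor 0.84 and 0.98. Without normalization the arm difference changed by 0.57 and 0.97, and by -0.15 and 0.46 at the spots.

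For miR-574-5p in Rb-depleted primary relative to control cells (0.51), the change was 0.10 without normalization, with a floor of 1 and with all probes summed, 0.34 with the 75th percentile of the table, 0.087 and 0.088 at the spots, 0.11 with the brightest probe and 0.023 with control rows. In secondary relative to control cells (0.20), it was -0.29 without normalization, with a floor of 1, with the sum of spots and with all probes, -0.32 with mean spots, -0.23 with the brightest probe and -0.16 with control rows. In secondary relative to Rb-depleted primary cells it was -0.18 with the 75th percentile of the table and with control rows.

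For miR-1187 in Rb-depleted primary relative to control cells (0.62), the change was 0.26 without normalization, with a floor of 1 and with all probes, 0.50 with the 75th percentile of the table, 0.28 and 0.25 at the spots, 0.22 with the brightest probe and 0.18 with control rows. In secondary relative to control cells (0.068), it was -0.46 without normalization, with a floor of 1 and with all probes, -0.0028 with the 75th percentile of the table, -0.47 and -0.45 at the spots, -0.43 with the brightest probe and -0.32 with control rows. In secondary relative to Rb-depleted primary cells (-0.55), it was -0.72 without normalization, with a floor of 1 and with all probes, -0.75 and -0.70 at the spots and -0.65 with the brightest probe.

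With each array left out in turn, the 3 changes, in the order Rb-depleted primary and secondary relative to control and secondary relative to Rb-depleted primary cells, ranged from -0.61 to 0.41, 2.05 to 3.11 and 2.25 to 3.21 for miR-574-3p, from 0.42 to 0.60, 0.11 to 0.29 and -0.37 to -0.25 for miR-574-5p, and from 0.54 to 0.70, 0.046 to 0.10 and -0.63 to -0.47 for miR-1187.

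The counts of calls by limma in the same order (4, 57 and 51) were 27, 114 and 45 without normalization, 0, 29 and 34 with the 75th percentile of the table, 2, 88 and 29 with a floor of 1, and 54, 86 and 50 with control rows. The 75th percentile of all mouse miRNAs gave 0 in the first comparison. The unadjusted counts in that comparison were 42 with the table's percentile and 68 with that of all mouse miRNAs. With slide as a term, chosen after the data were seen, the counts were 0, 6 and 0, with 62 and 67 unadjusted in the first and last. Leaving out each array gave 0 to 22, 1 to 74 and 2 to 66, with 0 without control replicate 2, Rb-depleted primary replicate 2, or secondary replicate 1 or 3, and 22 without Rb-depleted primary replicate 1. The fewest calls for secondary against control cells came without control replicate 1, and for secondary against Rb-depleted primary cells without replicate 2 of the latter. In the GU-rich list, 3 and 1 were called in secondary against control and against Rb-depleted primary cells without normalization, and 1 against the latter (miR-362-5p, 0.44) with runs of at least 5 bases. Leaving out each array gave 0 to 1 calls in the list in every comparison. The cause of these shifts in the counts was not tested.

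With the replicate number as a block, the counts were 0, 4 and 0 (44 and 68 unadjusted in the first and last), and miR-574-3p changed by 2.26 and 2.36 in secondary cells. The labels do not say that a number marks a shared experiment. The deviations of same-numbered arrays from their group means correlated at -0.14 to 0.13. With 2 or 3 arrays per group this cannot decide whether the numbers pair the samples, since 2 deviations in a group mirror each other. Low signal limits miR-574-3p: its brightest probe gave 3.01 to 5.65 times its error.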
